A study of Rattus norvegicus with 8 samples.

Results

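The chemokines Ccl2, Cxcl1 and Cx3cl1, the cytokine Il33 and the receptors Ackr3 and Il6r were followed across slow and fast cells of a rat glioma line. All probe sets named for these 6 genes in the platform's probe table were taken, which gave 8 probe sets of 5 genes among the 8799 probe sets and 4736 named genes of the array. Ccl2 had 2 probe sets, Cx3cl1 had 3, and Il33, Ackr3 and Il6r had 1 each, and no probe set was named for Cxcl1. Total RNA of C6, an established rat glioma line with glial features, had been hybridised to 8 oligonucleotide arrays under the heading of migration. The groups were C6SPGFP fast, C6SPGFP slow, C6 fast and C6 slow cells, with 2 arrays in each. No treatment, time or genotype is given in the sources used here, nor what C6SPGFP stands for, how fast and slow cells were obtained, whether C6SPGFP is 1 clone, or whether replicates came from separate cultures. The p-values therefore measure the spread between these samples, which may be technical.

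One array, C6SPGFP fast replicate 1, had been deposited on another scale (2% trimmed mean 500.5, against 100.1 to 105.8 on the other 7), and all signals below are quantile normalised. Pearson's r was taken over log2(signal + 8) of the 6684 probe sets tested (which do not count as replicates). It was 0.969 to 0.978 between replicates and 0.923 to 0.939 between C6 fast and C6 slow arrays. Between C6 fast and C6SPGFP arrays it was 0.8995 to 0.9126, so the C6 fast arrays stood apart. A log2 change is the difference of mean log2(signal + 8), which draws changes of weak probe sets towards 0, and a fold is its antilog. A probe set is called at a limma adjusted p under 0.05 over the 6684 probe sets tested, those with a mean signal of at least 8. No detection calls were at hand, so a signal of a few units is not shown to lie above background.

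Chemokines are small secreted proteins that draw cells along a gradient through G-protein-coupled receptors. Ccl2 attracts monocytes through the receptor Ccr2, Cxcl1 attracts neutrophils through Cxcr2, and Cx3cl1 is a membrane-bound ligand of Cx3cr1 that the proteases Adam10 and Adam17 release from the surface. Il33 is a nuclear alarmin of the interleukin 1 family whose receptor pairs Il1rl1 with Il1rap. Ackr3 binds the chemokine Cxcl12 and removes it without G-protein signalling, and Il6r is the ligand-binding chain of the interleukin 6 receptor, which signals through gp130 (Il6st) and Jak kinases. In gliomas, Ccl2 is known as an attractant of monocytes and microglia.

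Il33 is annotated with more than 1 start of transcription in the rat, and its single probe set cannot tell transcripts of these starts apart. Sequence before both starts is therefore shown, only in part for the upstream one. The bases were read from the RefSeq promoter table of build GRCr8, plus strand, 5′ to 3′. For the upstream start, chr1:237115323-237115477 is printed (155 bases), up to the annotated start of the gene. The rest of its window of 250 bases, to 237115572 just before that start of transcription, is not printed. For the other start, labelled internal, chr1:237134696-237134945 is printed (250 bases). Both starts of transcription lie within the annotated gene. Capitals mark the letters TATAAA.
Il33 upstream start: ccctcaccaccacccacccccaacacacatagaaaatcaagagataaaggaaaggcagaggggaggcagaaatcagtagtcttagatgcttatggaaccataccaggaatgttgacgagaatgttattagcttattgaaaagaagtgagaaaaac
Il33 internal start: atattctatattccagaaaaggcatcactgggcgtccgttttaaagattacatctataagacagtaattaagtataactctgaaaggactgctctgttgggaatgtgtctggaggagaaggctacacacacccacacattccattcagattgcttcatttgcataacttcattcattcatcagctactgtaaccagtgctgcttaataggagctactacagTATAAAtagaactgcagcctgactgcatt
The TATAAA stands 29 bases before the internal start, and the 250 bases before the upstream start held none. In the same search, on both strands of the 250 bases before each annotated start, the consensus named NF-kappaB had 2 matches before Cxcl1, which overlap each other on opposite strands (84 and 83 bases before the start), and 1 before Il6 (68 bases). TATAAA had 1 match before Cx3cl1 (78 bases) and 1 before Ackr3 (54 bases). The AP-1 motif TGANTCA had none before any of the genes searched, and none of the 3 motifs was found before Il6r. Over 33469 promoter windows of this length, 3.54% held the NF-kappaB consensus, 6.34% TGANTCA and 12.9% TATAAA. No promoter sequence was at hand for Ccl2, so Ccl2 was not searched for any of these motifs. A match describes letters only.

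Ccl2 had its lowest signal in C6 fast cells and its highest in C6 slow cells, while in the C6SPGFP set the fast cells had the higher signal. The coding probe set read 634 and 564 on the C6SPGFP fast arrays, against 149.7 and 170.4 on the C6SPGFP slow arrays. It read 45.6 and 58.5 on the C6 fast arrays, against 1888 and 1753 on the C6 slow arrays. The 4 groups did not overlap and ran in the order C6 slow, C6SPGFP fast, C6SPGFP slow and C6 fast. In bulk RNA of this kind, fewer cells that make a transcript and less of it per cell cannot be told apart.

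The C6 fast signal of the coding probe set was 52.1 ± 9.10, against 1820 ± 95.9 in C6 slow cells (SD, n = 2 each), a log2 change of -4.93 ± 0.17 (SE, limma adjusted p = 1.38e-06) or 30.6-fold lower. In the C6SPGFP set it was 599 ± 49.0 in fast cells and 160.0 ± 14.7 in slow cells, a rise of 1.85 ± 0.17 (adjusted p = 0.00156) or 3.61-fold. Fast over slow thus moved in opposite directions, and the difference of the changes, C6SPGFP minus C6, was 6.79 ± 0.24 (adjusted p = 3.64e-06). Between the sets, Ccl2 was 10.9-fold lower in C6SPGFP slow than in C6 slow cells (log2 change -3.45 ± 0.17, adjusted p = 5.75e-05). It was 10.1-fold higher in C6SPGFP fast than in C6 fast cells (3.34 ± 0.17, adjusted p = 9.39e-06). All these calls of the coding probe set held under each of the 14 or 15 other settings tried.

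The mRNA probe set of Ccl2 is named for the same transcript record as the coding one and is not independent of it. It read 817 and 1079 on the C6SPGFP fast arrays, against 292 and 318 on the C6SPGFP slow arrays. It read 97.5 and 196 on the C6 fast arrays, against 1873 and 1611 on the C6 slow arrays. Groups again did not overlap and stood in the same order, with a wider gap between the C6 fast replicates. Its log2 changes were -3.57 ± 0.29 in C6 (adjusted p = 0.000156), 1.60 ± 0.29 in C6SPGFP (adjusted p = 0.0342) and 5.17 ± 0.40 for their difference (adjusted p = 0.000245). It was lower in C6SPGFP slow than in C6 slow cells by -2.48 ± 0.29 (adjusted p = 0.00253) and higher in C6SPGFP fast than in C6 fast cells by 2.69 ± 0.29 (adjusted p = 0.000504). The rise within C6SPGFP lost its call without any 1 of the 4 C6SPGFP arrays or the 2 C6 slow arrays and with no filter on signal. Over all settings it was 1.40 to 1.85, with adjusted p up to 0.268. The other calls of this probe set held under every setting tried.

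**Figure D1:**
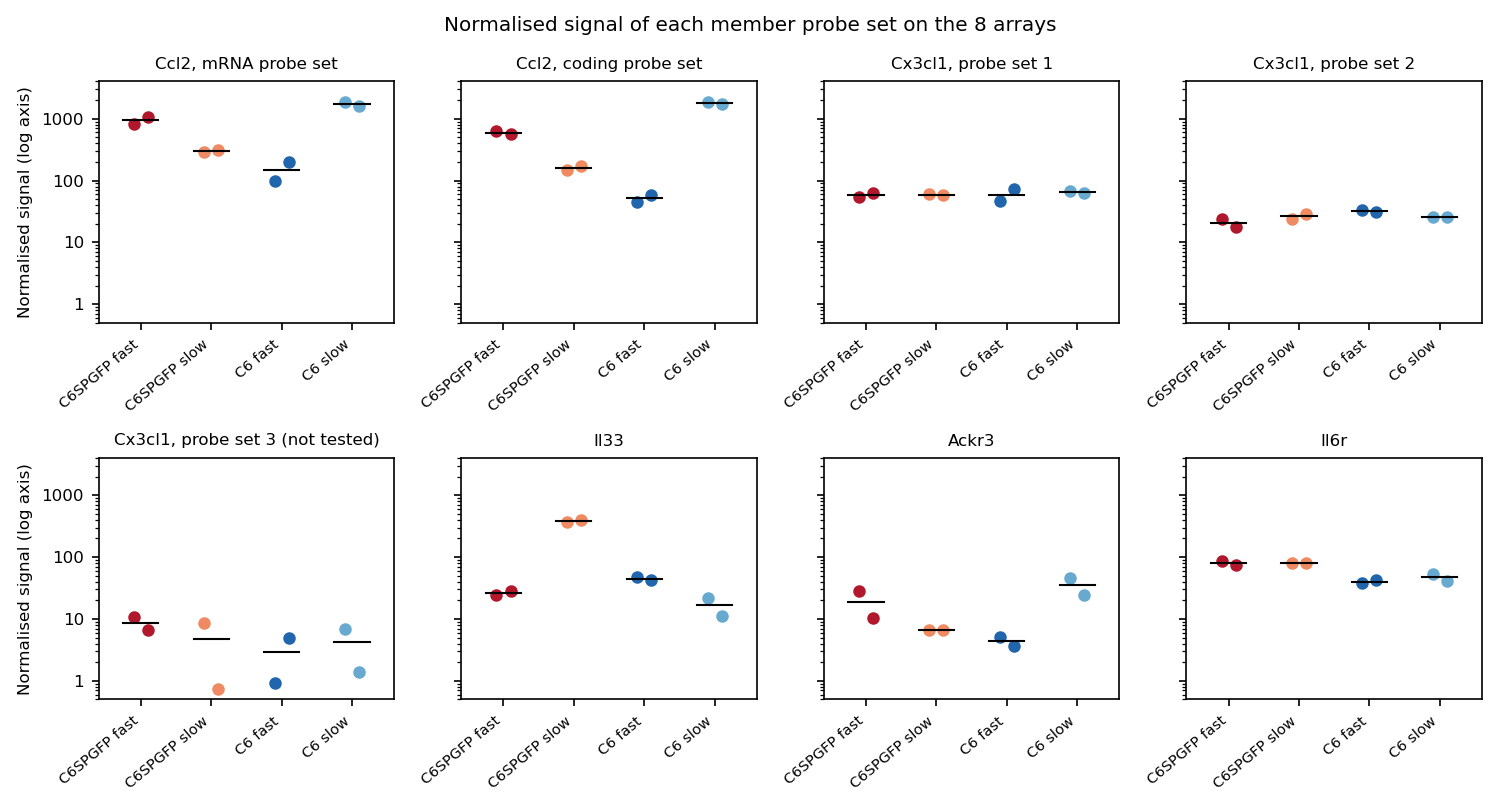
Normalised signal (log axis) of the 8 probe sets of Ccl2, Cx3cl1, Il33, Ackr3 and Il6r on each array, with points for replicates and a bar for the mean of each group. Ccl2 runs from 45.6 to 1888 in its coding probe set and Il33 from 11.2 to 399, while Cx3cl1 probe set 1 stays between 46.5 and 71.9.

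Cx3cl1, the ligand that is tethered to the cell surface, showed no called difference. Its probe set 1 read 53.5 and 62.2 on the C6SPGFP fast arrays, against 60.4 and 58.2 on the C6SPGFP slow arrays. On the C6 fast arrays it read 46.5 and 71.9, against 68.2 and 63.7 on the C6 slow arrays. The groups overlapped within each set, and the spread between the C6 fast replicates was the widest of the 4. The fast minus slow change of probe set 1 was -0.03 ± 0.23 in C6SPGFP (95% interval -0.56 to 0.49) and -0.16 ± 0.23 in C6 (-0.69 to 0.36).

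Probe set 2 of Cx3cl1 was weaker, at 23.7 and 18.0 on the C6SPGFP fast and 24.2 and 28.6 on the C6SPGFP slow arrays. On the C6 fast arrays it read 32.8 and 30.5, against 26.2 and 25.6 on the C6 slow arrays. Its fast arrays lay below the slow arrays in C6SPGFP and above them in C6, but the difference of the changes, -0.48 ± 0.31, was not called (adjusted p = 0.533). Over both probe sets and the 5 comparisons the adjusted p ran between 0.200 and 0.993. Probe set 3, named for the same record as probe set 1, had signals between 0.738 and 10.8 and lay below the filter. Among comparisons of 2 groups the 95% intervals reached furthest in probe set 2 between C6SPGFP fast and C6 fast cells (-0.96 to 0.03), so a missed threshold does not show that groups were alike.

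Il33 stood out in C6SPGFP slow cells. It read 24.1 and 28.4 on the C6SPGFP fast arrays, against 375 and 399 on the C6SPGFP slow arrays. It read 47.1 and 42.9 on the C6 fast arrays, against 22.2 and 11.2 on the C6 slow arrays. Both C6SPGFP slow arrays were thus far above the other 6, whose signals lay between 11.2 and 47.1, and no groups overlapped. The order of the groups was C6SPGFP slow, C6 fast, C6SPGFP fast and C6 slow. C6SPGFP fast and C6 slow cells, neighbours in that order, were not compared with each other, and their nearest arrays differed by less than the spread between the C6 slow replicates.

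Within C6SPGFP, Il33 had a signal of 26.3 ± 3.07 in fast cells and 387 ± 16.5 in slow cells (SD, n = 2 each), a log2 change of -3.53 ± 0.25 (adjusted p = 0.000317) or 11.5-fold lower. Within C6 it had 45.0 ± 2.96 in fast cells and 16.7 ± 7.79 in slow cells, a change of 1.14 ± 0.25 (adjusted p = 0.0287) or 2.20-fold higher. The difference of the changes was -4.67 ± 0.35 (adjusted p = 0.000210), a sign opposite to that of Ccl2. Il33 was 16.4-fold higher in C6SPGFP slow than in C6 slow cells (4.04 ± 0.25, adjusted p = 9.79e-05). Between C6SPGFP fast and C6 fast cells the change of -0.63 ± 0.25 was not called (adjusted p = 0.132, 95% interval -1.19 to -0.07). The rise in C6 fast cells held in 7 of 15 other settings, with values of 0.82 to 1.49 and adjusted p of 0.0129 to 0.111. It lost its call without C6 slow replicate 2, C6 fast replicate 1 or 2, C6SPGFP slow replicate 1 or 2, or C6SPGFP fast replicate 2, with no filter, and in a fit of the C6 arrays alone, whereas the other 3 calls of Il33 held throughout.

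Ackr3, the scavenging receptor of Cxcl12, had low signals. It read 27.8 and 10.4 on the C6SPGFP fast arrays, against 6.72 and 6.56 on the C6SPGFP slow arrays. It read 5.08 and 3.70 on the C6 fast arrays, against 46.2 and 24.2 on the C6 slow arrays. No groups compared overlapped, but all 4 arrays of C6SPGFP slow and C6 fast cells lay under the filter level of 8, so the probe set was tested because of its signals in the other 2 groups. Ackr3 fell in C6 fast cells, with 4.39 ± 0.972 against 35.2 ± 15.6 in C6 slow cells (log2 change -1.76 ± 0.37, adjusted p = 0.0254). In C6SPGFP the change was 0.81 ± 0.37 and was not called (adjusted p = 0.544, 95% interval -0.04 to 1.66).

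The difference of the Ackr3 changes was 2.57 ± 0.52 (adjusted p = 0.0344), of the same sign as that of Ccl2. Ackr3 was lower in C6SPGFP slow than in C6 slow cells (-1.51 ± 0.37, adjusted p = 0.0495), and the 1.05 ± 0.37 between C6SPGFP fast and C6 fast cells was not called (adjusted p = 0.0970). The fall in C6 lost its call without C6 slow replicate 1 or either C6 fast replicate and with the C6 arrays alone (adjusted p up to 0.143). The difference held in 7 of 13 other settings, lost without C6 slow replicate 1, either C6 fast replicate, either C6SPGFP slow replicate or C6SPGFP fast replicate 1 (values 1.71 to 3.64 over all settings). The call between slow cells held in 4 of 14, and was lost without C6 slow replicate 1, either C6 fast replicate or either C6SPGFP slow replicate, and with linear scaling, other pseudocounts, no filter or the slow arrays alone (values -2.04 to -1.14, adjusted p up to 0.218).

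Il6r had its higher signals in the C6SPGFP set. It read 87.4 and 73.3 on the C6SPGFP fast arrays, against 81.5 and 78.8 on the C6SPGFP slow arrays. It read 37.5 and 42.9 on the C6 fast arrays, against 52.8 and 41.2 on the C6 slow arrays. All 4 C6SPGFP arrays lay above all 4 C6 arrays, and fast and slow overlapped in both sets. In fast cells Il6r was 1.83-fold higher in C6SPGFP, at 80.4 ± 9.95, than in C6, at 40.2 ± 3.85 (log2 change 0.87 ± 0.21, adjusted p = 0.0226). That call was lost without any 1 of the 4 fast arrays and in a fit of those arrays alone (0.71 to 1.09, adjusted p up to 0.119).

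In slow cells the Il6r signal was 80.1 ± 1.94 in C6SPGFP and 47.0 ± 8.19 in C6, and the change of 0.69 ± 0.21 was not called (adjusted p = 0.0927, 95% interval 0.22 to 1.16). Fast minus slow, the log2 change of Il6r was 0.00 ± 0.21 in C6SPGFP (95% interval -0.47 to 0.47) and -0.19 ± 0.21 in C6 (-0.66 to 0.28), neither called. The difference of these 2 values was 0.19 ± 0.29 (adjusted p = 0.823).

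Over the 7 tested probe sets of the 5 genes, fast minus slow in C6 called 1 higher (Il33) and 3 lower (both of Ccl2, and Ackr3), where 2.69% of all tested probe sets were called higher and 3.96% lower. In C6SPGFP, 2 were higher (Ccl2) and 1 lower (Il33), against 1.06% and 0.329%. The difference of the changes called 3 higher and 1 lower, against 2.71% and 1.11%. C6SPGFP slow against C6 slow cells called 1 higher and 3 lower, against 3.29% and 3.05%, and C6SPGFP fast against C6 fast cells called 3 higher and none lower, against 8.29% and 7.3%. The 2 Ccl2 probe sets are counted apart here although they measure 1 transcript, the comparisons between sets share arrays with those within sets, and the genes had been picked with earlier results of these arrays known. The C6 count of 4 was 2 without either C6 fast replicate or with the C6 arrays alone.

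**Figure D2:**
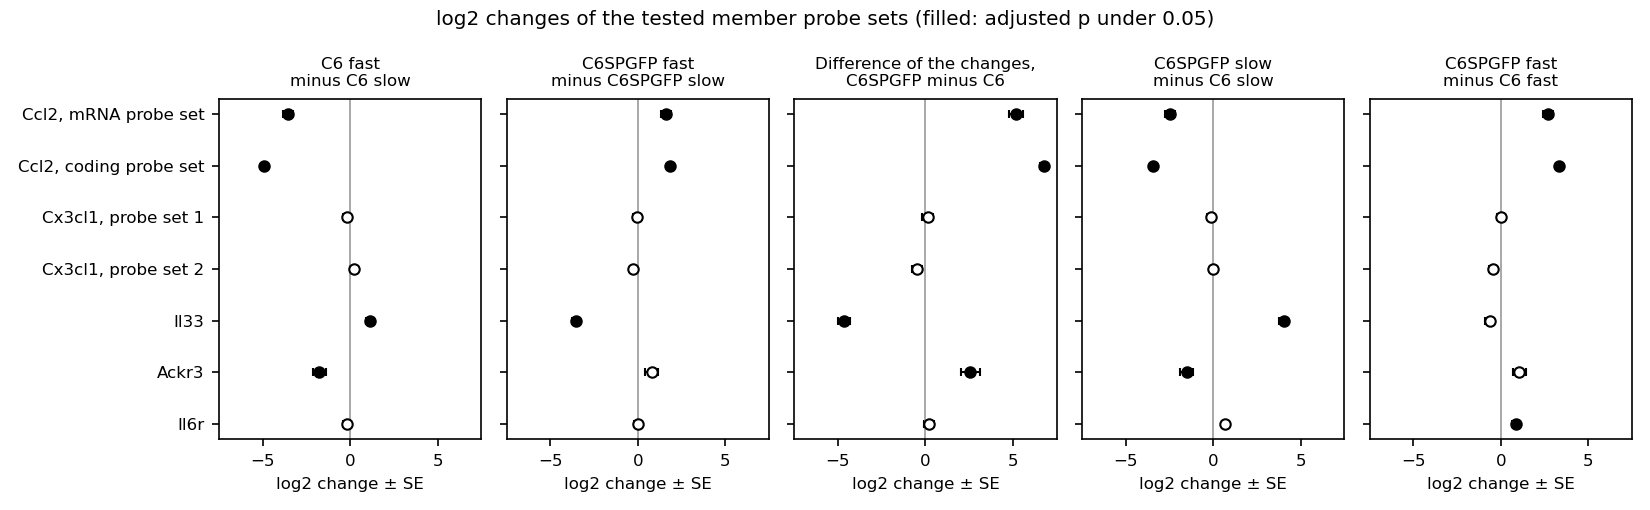
Log2 changes (points, bars are SE) of the 7 tested probe sets in the 5 comparisons, filled where the limma adjusted p is under 0.05. Ccl2 and Il33 lie on opposite sides of 0 in each comparison within and between sets, and both Cx3cl1 probe sets are open throughout.

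The surrounding network was described with 6 role lists of 131 genes, of which 69 had a named probe set and 56 were tested, 1 probe set per gene. Fast minus slow in C6 called 4 higher and 3 lower, against 2.71% and 4.33% of the 3878 tested genes, with a median log2 change of 0.03 beside 0.01 over all tested genes. In C6SPGFP 2 were higher and 1 lower, against 1.06% and 0.361% (medians 0.03 and -0.03). The difference of the changes called 3 higher and 1 lower, against 3.04% and 1.08% (medians -0.06 and -0.04). C6SPGFP slow against C6 slow cells called 3 higher and 4 lower, against 3.79% and 3.12% (medians 0.08 and 0.01). C6SPGFP fast against C6 fast cells called 7 higher and 4 lower, against 8.82% and 7.09% (medians 0.08 and -0.03). These counts hold the 5 genes above and are small. Ccl2 entered them with its mRNA probe set, which had the higher mean signal, and not with the coding one. The 7 called in C6 became 1 when C6 fast replicate 2 was left out, 3 when C6 slow replicate 1 was, and 4 when any of C6 fast replicate 1, C6 slow replicate 2, either C6SPGFP slow replicate or C6SPGFP fast replicate 2 was. The 3 called in C6SPGFP became 1 when any C6SPGFP array was left out, and the 4 of the difference became 2 for C6 slow replicate 1, C6 fast replicate 2, C6SPGFP slow replicate 1 or C6SPGFP fast replicate 1. The 7 between slow cells became 2 when C6SPGFP slow replicate 1 was left out, 3 for C6 slow replicate 1 and 4 for C6SPGFP slow replicate 2. The 11 between fast cells became 4 when C6SPGFP fast replicate 2 was left out, 6 for C6SPGFP fast replicate 1 or C6 fast replicate 2 and 7 for C6 fast replicate 1.

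Among the 8 tested chemokine ligands of 33 listed, Ccl2 was the single call in 4 of the comparisons, and Cxcl10, an interferon-induced ligand of Cxcr3, was called beside it in fast cells. Cxcl10 read 245 and 244 on the C6SPGFP fast arrays, against 90.0 and 122 on the C6 fast arrays. Both C6SPGFP fast arrays were higher, by 1.16 ± 0.23 (adjusted p = 0.0102). That call was lost without C6 fast replicate 1 or either C6SPGFP fast replicate. The C6SPGFP and C6 fast arrays did not overlap. Cxcl2 and Cxcl3, close relatives of Cxcl1, had signals of at most 2.66 on any array and were not tested.

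Among the 8 tested chemokine receptors of 23 listed, Ackr3 was the single called gene. Receptors of the ligands above gave no call where they were tested, and no probe set was named for Cxcr3, the receptor of Cxcl10. Ccr2, the receptor of Ccl2, had signals of 1.56 to 2.66 over the 8 arrays and lay below the filter. Cx3cr1, the receptor of Cx3cl1, read 6.56 and 21.9 on the C6SPGFP fast arrays, against 13.5 and 36.0 on the C6SPGFP slow arrays. It read 18.3 and 16.5 on the C6 fast arrays, against 31.8 and 4.94 on the C6 slow arrays. In all groups but C6 fast, replicates of Cx3cr1 differed by more than the group means did. Cxcr4, the signalling receptor of the ligand that Ackr3 removes, read between 86.5 and 134 with overlap in every comparison and changes of at most 0.23 in size, and no probe set was named for Cxcl12. Cxcl2, Cxcl3, these receptors, Il1rl1 and Il6st were chosen for naming after their values had been seen.

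In the interleukin 1 family, with 10 of 19 listed genes tested, Il33, Il18, Il1rap and Casp1 gave the calls. Il18, a cytokine that is matured by the protease Casp1, read 67.5 and 71.0 on the C6SPGFP fast arrays, against 23.7 and 24.3 on the C6SPGFP slow arrays. It was higher in both fast arrays, by 1.27 ± 0.22 (adjusted p = 0.0300), the opposite side from Il33 in the same cells, and its other probe set gave 1.31 ± 0.22 (adjusted p = 0.0260). In C6 its change of 0.71 ± 0.22 was not called, and the difference between the sets was 0.57 ± 0.31 (adjusted p = 0.459). The C6SPGFP call of Il18 was lost without any of the 4 C6SPGFP arrays, either C6 fast array, or the filter.

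Il1rap, the second chain of the Il33 receptor, read 257 and 255 on the C6SPGFP fast arrays, against 42.5 and 91.2 on the C6 fast arrays. It read 421 and 301 on the C6SPGFP slow arrays, against 69.7 and 88.5 on the C6 slow arrays. All C6SPGFP arrays were above all C6 arrays, by 1.90 ± 0.32 in fast cells (adjusted p = 0.00456) and 2.07 ± 0.32 in slow cells (adjusted p = 0.00761). The slow call was lost without C6 slow replicate 1 or C6SPGFP slow replicate 1, and the other Il1rap probe set was called in fast cells (1.23 ± 0.30, adjusted p = 0.0259) and not in slow cells (1.20 ± 0.30, adjusted p = 0.0530).

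Il1rl1, the chain that binds Il33, gave no call. It read 205 and 248 on the C6SPGFP fast arrays, against 281 and 299 on the C6SPGFP slow arrays. It read 552 and 75.0 on the C6 fast arrays, against 1443 and 785 on the C6 slow arrays. The C6 groups did not overlap, yet the C6 fast replicates lay far apart, and the change of -2.31 ± 0.72 had an adjusted p of 0.106.

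Casp1 read 122 and 136 on the C6SPGFP fast arrays, against 37.5 and 44.6 on the C6 fast arrays. It was higher in C6SPGFP fast cells by 1.48 ± 0.38 (adjusted p = 0.0305), a call lost without any 1 of those 4 arrays. Of its 2 other probe sets, 1 was called there as well (1.91 ± 0.24, adjusted p = 0.00114) and the other was not (1.20 ± 0.45, adjusted p = 0.118). The called one also rose in C6SPGFP fast over slow cells (1.69 ± 0.24, adjusted p = 0.0124), where the probe set with the highest signal gave 0.95 ± 0.38 (adjusted p = 0.449), so the probe sets disagree there. The called one read 29.7 and 29.9 on the C6SPGFP fast arrays and 1.96 to 4 on the other 6, so it was tested because of its signal in that group, and its changes are taken against signals not shown to be above background.

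**Figure D3:**
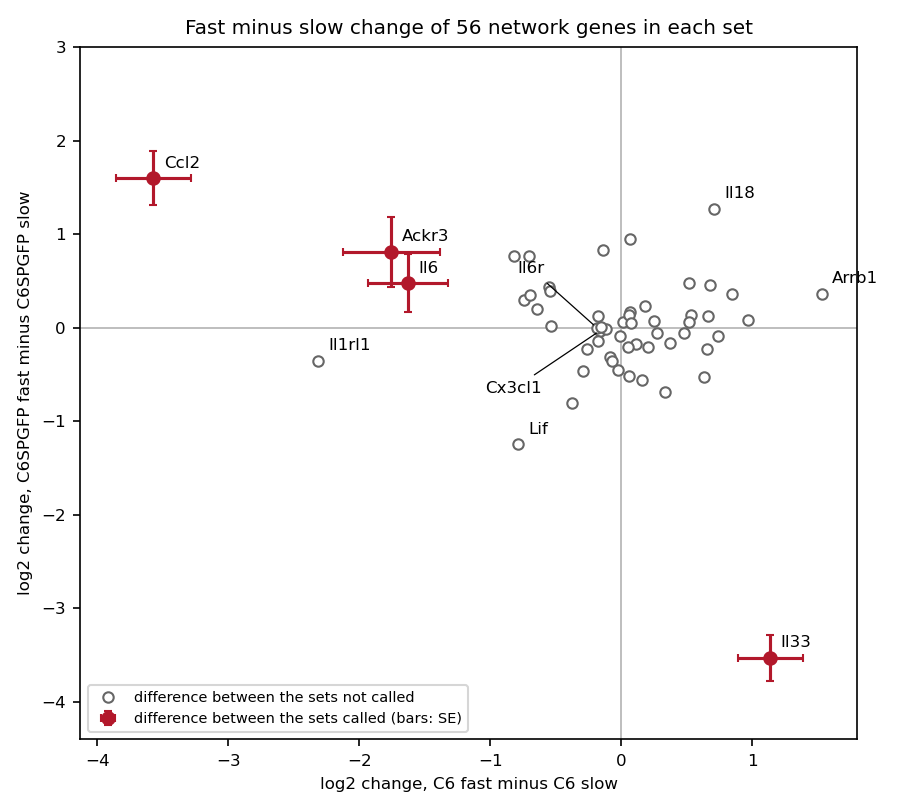
Log2 change of fast minus slow cells in C6 (horizontal) and in C6SPGFP (vertical) for the 56 tested network genes, filled with SE bars where the difference between the sets was called. Ccl2 (mRNA probe set), Ackr3 and Il6 lie to the upper left and Il33 to the lower right, away from the genes near 0.

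In the interleukin 6 and gp130 family, with 13 of 23 listed genes tested, the ligand Il6 was low outside C6 slow cells. It read 9.11 and 10.1 on the C6SPGFP fast arrays, against 1.86 and 8.26 on the C6SPGFP slow arrays. It read 7.39 and 3.20 on the C6 fast arrays, against 33.4 and 31.8 on the C6 slow arrays. The 2 C6 slow arrays were the highest, and 3 of the other 6 lay under 8, so Il6 was tested because of its signal in C6 slow cells. The other Il6 probe set was below the filter.

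Il6 was lower in C6 fast than in C6 slow cells by -1.63 ± 0.31 (adjusted p = 0.0150) and lower in C6SPGFP slow than in C6 slow cells by -1.68 ± 0.31 (adjusted p = 0.0161). These 2 comparisons share the C6 slow arrays. In C6SPGFP fast minus slow the change was 0.48 ± 0.31, not called, and the difference of the changes was 2.10 ± 0.44 (adjusted p = 0.0355), the same sign as for Ccl2 and Ackr3. The call in C6 was lost without C6 fast replicate 2 or either C6 slow replicate, and that between slow cells without C6SPGFP slow replicate 1 or either C6 slow replicate. The difference held in 5 of 13 other settings (values 1.50 to 3.19 over all settings). It was lost without either C6 slow replicate, C6 fast replicate 2, C6SPGFP slow replicate 1 or either C6SPGFP fast replicate. A pseudocount of 2 and a replicate block each ended this call as well.

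Downstream of the receptors, the kinase Jak1 read 73.1 and 64.3 on the C6SPGFP fast arrays, against 141 and 134 on the C6 fast arrays. Jak1 was lower by -0.92 ± 0.18 (adjusted p = 0.0104) in that comparison, opposite to Il6r, and higher in C6 fast than in C6 slow cells by 0.74 ± 0.18 (adjusted p = 0.0482). Both comparisons share the C6 fast arrays. The second held in 2 of 15 other settings, a pseudocount of 16 and a stricter filter, and was lost in all others, among them any 1 array left out, and the first was lost without C6 fast replicate 1 or C6SPGFP fast replicate 2.

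Ctf1, the gp130 ligand cardiotrophin 1, read 45.3 and 44.5 on the C6SPGFP fast arrays, against 85.7 and 103 in C6 fast cells, and the C6 slow arrays had 51.0 and 38.0. It was lower in C6SPGFP fast than in C6 fast cells by -0.94 ± 0.22 (adjusted p = 0.0203), lost with linear scaling and without C6 fast replicate 2 or either C6SPGFP fast replicate. It was higher in C6 fast than in C6 slow cells by 0.97 ± 0.22 (adjusted p = 0.0329), which was lost without any 1 array. Il6st, the shared signalling chain gp130, read 53.6 to 99.7 on the C6SPGFP arrays and 54.9 to 100.4 on the C6 arrays and gave no call.

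In the TNF and NF-kappaB list, with 7 of 21 genes tested, 2 calls were made, both higher in C6SPGFP fast than in C6 fast cells, the comparison in which 8.82% of all tested genes were called higher. Nfkbia, the inhibitor that holds NF-kappaB in the cytoplasm, read 120.3 and 112 on the C6SPGFP fast arrays, against 65.9 and 46.7 on the C6 fast arrays, higher by 0.96 ± 0.24 (adjusted p = 0.0279). Its difference between the fast minus slow changes, 1.47 ± 0.34, was not called (adjusted p = 0.0536), although that of its other probe set was (1.36 ± 0.29, adjusted p = 0.0408). The TNF receptor Tnfrsf1b read 20.5 and 21.6 on the C6SPGFP fast arrays, against 2.23 and 3.20 on the C6 fast arrays, a log2 change of 1.44 ± 0.35 (adjusted p = 0.0242). Both C6 fast signals lie under the filter level and are not shown to be above background, and the probe set fell below the filter when C6SPGFP fast replicate 1 was left out. The other Tnfrsf1b probe set lay below the filter and did not show this rise. It read 4.20 and 2.84 on the C6SPGFP fast arrays, against 2.05 and 4.18 on the C6 fast arrays. The Nfkbia call was lost without C6 fast replicate 2 or either C6SPGFP fast replicate, and that of Tnfrsf1b without either C6 fast replicate or C6SPGFP fast replicate 2.

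Among sheddases and receptor couplers, with 10 of 12 genes tested, Timp3, an inhibitor of Adam17, was lower in C6SPGFP cells at both speeds. It read 78.9 and 51.5 on the C6SPGFP fast arrays, against 272 and 216 on the C6 fast arrays, a change of -1.80 ± 0.23 (adjusted p = 0.00121). It read 41.6 and 47.1 on the C6SPGFP slow arrays, against 150.1 and 147 on the C6 slow arrays, a change of -1.58 ± 0.23 (adjusted p = 0.00638) that lost its call without either C6SPGFP slow replicate. All C6SPGFP arrays lay below all C6 arrays.

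Adam17, a protease that cleaves Cx3cl1, Il6r and Tnf from the surface, read 221 and 234 on the C6SPGFP slow arrays, against 84.2 and 111 on the C6 slow arrays. It was higher by 1.17 ± 0.21 (adjusted p = 0.0142), and the call was lost without C6 slow replicate 1 or either C6SPGFP slow replicate. In fast cells it read 162 and 152 in C6SPGFP, against 87.2 and 117 in C6, a change of 0.60 ± 0.21 that was not called (adjusted p = 0.0942). Both pairs of groups were free of overlap.

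Arrb1, the beta-arrestin that takes up chemokine receptors, read 33.3 and 27.1 on the C6SPGFP fast arrays, against 92.6 and 148 in C6 fast cells, and the C6 slow arrays had 31.5 and 39.6. It was highest on the 2 C6 fast arrays, by 1.53 ± 0.26 over C6 slow cells (adjusted p = 0.00938), and lower in C6SPGFP fast cells by -1.72 ± 0.26 (adjusted p = 0.00287). The first call was lost on omitting C6 fast replicate 2 or C6 slow replicate 1. All 10 tested genes of this list had a positive log2 change in C6 fast minus slow, with a median of 0.52, and 1 was called, where 1989 of the 3878 tested genes were positive and 2.71% were called higher. Some of the 10 lay near 0, such as Adam17 (0.06 ± 0.21) and Arrb2 (0.06 ± 0.23), both with overlapping arrays. Adam17 reached -0.14 in another setting, and all 10 genes share the same arrays. In C6SPGFP 5 of the 10 were positive and 5 negative, and 9 of 10 were negative for the difference of the changes, with none called.

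**Figure D4:**
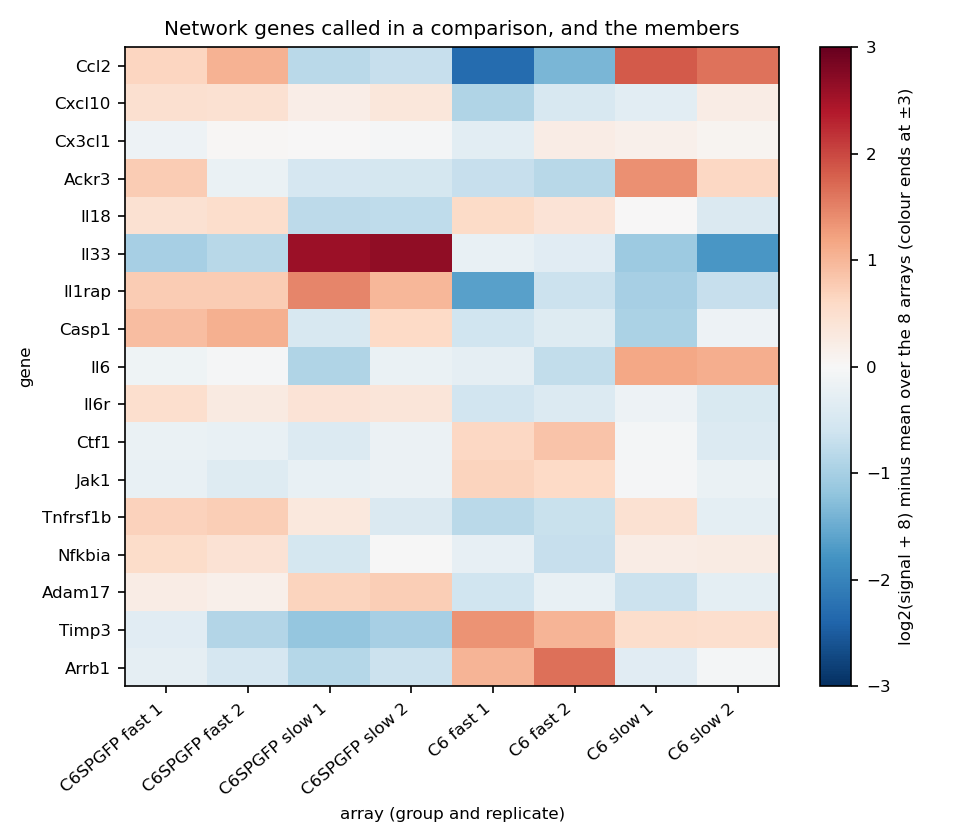
Log2(signal + 8) minus its mean over the 8 arrays for 17 network genes, the 5 members and those called in a comparison, with arrays in columns. Il33 is darkest red on the 2 C6SPGFP slow arrays, and Ccl2 (mRNA probe set) is red on the C6SPGFP fast and C6 slow arrays and blue on the C6 fast arrays.

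The genes whose log2 levels followed each member most closely over the 8 arrays were found by Pearson's r among tested genes, as a description in which all points share arrays and groups. For Ccl2, taken with its mRNA probe set, these were Svbp (0.986), Gchfr (0.977) and Capg (0.961). Capg, an actin-capping protein, read 946 and 786 in C6SPGFP fast, 429 and 625 in C6SPGFP slow, 300.0 and 321 in C6 fast and 1195 and 1119 in C6 slow cells, the order of groups seen for Ccl2. For Il33 they were Tbc1d23 (0.964), Gucy1b1 (0.944) and Kcnj10 (0.939). Kcnj10, a glial potassium channel, read 124 and 62.0 on the C6SPGFP slow arrays and between 4.53 and 8.05 on the other 6. It was tested because of its signal in that group, and the other signals are not shown to be above background. Capg and Kcnj10 were picked for their likeness to Ccl2 and Il33, so a shared pattern is no further result. For Ackr3 they were Eif4ebp1 (0.941), Hspa1a (0.927) and Cgref1 (0.926), for Il6r Ldhb (0.983), Plekha1 (0.983) and Snx4 (0.979), and for Cx3cl1 Zp1 (0.937), Thoc2 (0.930) and Dhx36 (0.909). Hspa1a, with a mean signal of 8.09, read 19.3 and 16.7 on the C6 slow arrays and between 2.40 and 8.25 on the other 6. It was tested because of its signal in C6 slow cells. The likeness to Cx3cl1 was taken with its probe set 1. Thoc2 read 3.31 and 30.3 in replicates 1 and 2 of C6 fast cells, apart in the same direction as that probe set (46.5 and 71.9). Probe set 2 of Cx3cl1 did not share this, at 32.8 and 30.5 on those arrays.

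Markers of other cells were set beside these results. Of 19 microglial and haematopoietic markers 13 had a probe set, and C1qb, Cd53, Cd74, Coro1a, Itgam and Lyz2 had a mean signal under 8. The summed signal of the 13 was 418.7 to 449.8 in C6SPGFP fast, 496.3 to 518 in C6SPGFP slow, 344.6 to 398.9 in C6 fast and 376.9 to 405.7 in C6 slow cells. Cd14 held a large part of these sums, at 283 and 292 in C6SPGFP slow and 90.6 and 128 in C6 fast cells. C1qc and Ptprc added to them through 1 probe set each, while their other probe sets had mean signals of at most 3.08. Of the 7 tested, Cd37 rose in C6 fast over slow cells (1.41 ± 0.30, adjusted p = 0.0271), and between fast cells Cd14 was higher (1.02 ± 0.20, adjusted p = 0.0111) and Cd37 lower (-1.10 ± 0.30, adjusted p = 0.0417) in C6SPGFP.

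Endothelial and mural markers, 8 of 13 with a probe set and Des and Kdr under 8, summed to 494.3 to 517.8 in C6SPGFP fast, 400.6 to 401 in C6SPGFP slow, 453.6 to 531.1 in C6 fast and 510.7 to 834.4 in C6 slow cells, and none of the 6 tested was called. The sum of 834.4, on C6 slow replicate 1, held Tagln at 511, which read 139 on C6 slow replicate 2. The glial markers Cnp, Nes and S100b fell in C6 fast over slow cells (-2.23 ± 0.18, -1.98 ± 0.19 and -2.50 ± 0.16, adjusted p at most 0.000420), while Vim did not pass (-0.11 ± 0.10, adjusted p = 0.611) and Gfap had no named probe set. The other S100b probe set, of low signal, overlapped there. It read 13.2 and 7.39 on the C6 fast arrays, against 13.7 and 11.5 on the C6 slow arrays. Cnp also fell in C6SPGFP fast over slow cells (-0.93 ± 0.18, adjusted p = 0.0453). Between the sets, all 4 tested glial markers, Vim among them, were called higher in C6SPGFP fast than in C6 fast cells. There 8.82% of all tested genes were called higher (median log2 changes 2.24 and -0.03). Between slow cells 2 of the 4 were called higher in C6SPGFP, against 3.79% (medians 0.80 and 0.01). Summed, the glial markers gave 6349 to 6450.3 in C6SPGFP fast, 6591.7 to 6691.8 in C6SPGFP slow, 2937.5 to 3158.6 in C6 fast and 4527.5 to 4820 in C6 slow cells. Vim held a large part of these sums, at 3602 and 3831 in C6SPGFP fast, 3256 and 3102 in C6SPGFP slow, 2594 and 2723 in C6 fast and 3082 and 2681 in C6 slow cells. The part of these shifts in the values of Ccl2, Il33, Ackr3 and Il6r was not tested.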

How the data were processed

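The deposited values are probe set signals of linear intensity for 8799 probe sets, 59 of them controls, made by the authors with software not given in the sources used here. They ran between 0 and 14287.9 with no detection calls, so signals were not judged against a background, and the number of arrays limits the precision. Signals were quantile normalised between the 8 arrays (trimmed mean 150.9). Probe sets with a mean signal of at least 8 were tested (6684), and 2056 were left out. A model of 4 group means was fitted to log2(signal + 8) with limma 3.58.1 in R 4.3.3 (lmFit, eBayes with trend), two-sided, with Benjamini-Hochberg adjustment at 5% within each of 5 comparisons, on 4 residual and 4.49 prior degrees of freedom. The median SE was 0.241 for a comparison of groups and 0.341 for the difference of changes. The fit was also run on simulated data with independent normal noise. Those data leave out the normalisation and the differing array scale, so they do not test these steps.

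Gene symbols were read from the probe table of the platform (7018 probe sets with 1 symbol, 308 with several, 1473 with none), with 6994 updated through Entrez identifiers in a GRCr8 table used for names. Lists took the probe set with the highest mean signal per gene. Named genes are all members, the 3 genes nearest each member by Pearson's r, and up to 2 called genes per list, direction and comparison, with receptor partners and markers added. Members and lists were chosen with earlier results of these data known. The labels give no pairing, so the replicate numbers were not taken to pair the arrays. Deviations of same-numbered replicates correlated between -0.127 and 0.266 across groups. Whether same-numbered arrays share a batch was not tested. Alternatives changed the normalization, pseudocount, filter, arrays in the fit, a replicate block and each left-out array.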

Additional observations from a re-analysis of the deposited data

Results flagged for a closer look

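For 11 probe sets of the members, role lists and marker lists, the fast minus slow change differed between the C6SPGFP and C6 sets by limma's test of the difference itself, C6SPGFP minus C6. The log2 difference was 6.79 for the coding and 5.17 for the mRNA probe set of Ccl2, -4.67 for Il33, 2.57 for Ackr3 and 2.10 for Il6. It was 1.87 for the Casp1 probe set that is not its brightest, 1.36 for the second Nfkbia probe set, and among glial markers 1.31 for Cnp, 1.62 and 1.65 for the 2 probe sets of Nes and 2.55 for the brighter probe set of S100b. Fast cells had more Ccl2 than slow cells on every C6SPGFP array pair and less on every C6 pair, and Il33 showed the reverse. For Ackr3 and Il6 the change within C6 was called and that within C6SPGFP was not, and both differences lost their call in several settings.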

How the results depend on the processing

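Settings were tried for the 7 member probe sets and the brightest probe set of 12 other called network genes, and no called log2 change among these turned its sign. Other probe sets of those 12 genes, and the markers, were not recomputed. Of 508 recomputed member values, 459 kept their sign and their side of the threshold, 40 lost their call, and 9 that were never called (of Cx3cl1, and Il6r within C6SPGFP) changed sign near 0. Counts of called member probe sets ranged, with each array left out in turn, over 2 to 4 for fast minus slow in C6 (4 with all arrays), and the C6 count was 2 in a fit of the C6 arrays alone. It was 2 to 3 in C6SPGFP (3), 3 to 4 for the difference (4), 3 to 4 between slow cells (4) and 2 to 3 between fast cells (3). Called network genes ranged over 1 to 5 in C6 (7), 1 to 2 in C6SPGFP (3), 2 to 4 for the difference (4), 2 to 8 between slow cells (7) and 4 to 11 between fast cells (11). They fell to 4 in C6 and 1 in C6SPGFP with no filter and to 3 in C6 with the C6 arrays alone; fewer arrays or more tests per fit are part of those settings, and the cause was not tested further. With the replicate number as a block, a pairing that the labels do not give, 4, 3, 4, 4 and 3 member probe sets and 6, 3, 3, 7 and 11 network genes were called in the same order of comparisons. The Il6 difference (2.10) and the Jak1 change in C6 (0.74) then missed the threshold, and no other call of these probe sets did. Leaving out an array left its group with 1, whose spread is then assumed to equal that of the other groups. With no detection calls, signals under 8 (Ackr3 in C6SPGFP slow and C6 fast cells, some arrays of Il6) have no measured background to be set against.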
